A study of Anas platyrhynchos with 20 samples.

Results

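The difference between the liver and the breast muscle of ducks on the control diet is described here, gene by gene. It rests on 10 of the 20 RNA-seq libraries of the study, 5 of liver (CL) and 5 of breast muscle (CM). A gene was tested where its FPKM reached 1 in 5 or more of these libraries, which kept 10529 of the 25117 genes in the table. FPKM is a gene's fragment number corrected for gene length and library depth. All ducks were male Runzhou white crest ducks. CL and CM came from ducks on the control diet, which held 2% duck oil, and the remaining groups, HL (liver) and HM (breast muscle), came from ducks given 2% linseed oil in its place. All were sampled at day 28 of feeding. The study reports a fast before the ducks were weighed, and ducks were killed at the end of the trial. The part of that fast in the levels below was not tested. By the study's account the sequenced control ducks were those with the lowest n-3 PUFA ratios, so CL and CM are not a random draw of ducks on the duck oil diet, and that account gives 10 ducks for the 20 libraries, although the labels do not say that equal numbers mark the same duck.

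The liver makes most of the proteins of the blood plasma, releases glucose in a fast, builds fatty acids and cholesterol, forms bile acids and, in birds, disposes of nitrogen as uric acid. In birds it is also the main site of fatty acid synthesis, ahead of the adipose tissue. The breast muscle of a duck is a flight muscle of fast fibres that burn glucose and fatty acids to contract. Many enzymes of both tissues are encoded by separate genes for a liver form and a muscle form, and a small set of transcription factors is known in mammals to fix each tissue's programme: FOXA, HNF and C/EBP factors and nuclear receptors in hepatocytes, and the MyoD family with MEF2 factors in muscle.

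The libraries held 15417718 to 16584887 fragments in CL and 12374035 to 13432987 in CM. Liver RNA was spread over fewer genes. A median of 38 genes (range 26 to 55) made up 50% of the summed FPKM in CL, against 136 (range 107 to 145) in CM. The number of genes at an FPKM of 1 or more was 9132 to 9547 in CL and 10012 to 10185 in CM, although more fragments were counted in CL. Neither measure overlapped between the tissues (exact two-sided permutation test over all relabellings, p = 0.00794 for both, n = 5 each, which is the smallest p this design allows). The deposited values had been scaled by a size factor per library, so that the summed FPKM was 639541 to 817538 in CL and 341715 to 388387 in CM, and every fold change below is on that scale unless another is named.

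The defining markers of both tissues stood where the labels put them, where 20.4% of all tested genes were higher and 21.9% lower in CL. All 8 hepatocyte genes checked were higher in CL, and their summed FPKM was 207728, 177614, 198087, 135980.5 and 176805 in CL 1 to 5, against 53.1, 22.5, 42.6, 152 and 166 in CM 1 to 5. ALB, serum albumin, had 144091, 110249, 121114, 80405 and 108670.1 FPKM in CL 1 to 5, against 20.2, 5.53, 4.87, 58.5 and 68.8 FPKM in CM 1 to 5. The hepatocyte genes were near 0 in muscle but not at it, with the highest sums in CM 4 and CM 5, and the part of that trace in the CM values of other liver genes was not tested. ACTA1, skeletal muscle actin, had 1.43, 0.608, 1.59, 1.62 and 0.487 FPKM in CL 1 to 5, against 31821, 18462, 30965, 19756 and 23158 FPKM in CM 1 to 5. The giant sarcomere protein TTN and the fast troponins TNNC2 and TNNT3 followed it. TNNT3, for example, averaged 0.0447 ± 0.0712 FPKM in CL against 2901 ± 541 FPKM in CM (mean ± SD, n = 5 each, as for all means below). Of the myofibre markers, parvalbumin (PVALB) was almost absent from this muscle (0 to 0.0232 FPKM in CM), and CKM, MYLPF and RYR1 were not analysed here because their symbols did not match an entry.

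Genes of the other cells of a tissue differed too. All 9 tested endothelial markers and 9 of 10 markers of stellate cells and fibroblasts were lower in CL, for example CDH5 (VE-cadherin) with 4.49, 4.37, 5.87, 4.1 and 3.13 FPKM in CL 1 to 5, against 177, 122, 144, 151 and 222 FPKM in CM 1 to 5, and COL1A2, a chain of type I collagen, with 6.26, 7.01, 9.33, 10.4 and 3.08 FPKM in CL 1 to 5, against 146, 168, 207, 116 and 209 FPKM in CM 1 to 5. Over all tested genes 21.9% were lower and 20.4% higher in CL. The sum of the endothelial markers was 18.1 to 45 FPKM in CL and 402 to 629 FPKM in CM. These lists were written mainly from mammalian vessels and connective tissue, and the liver has its own sinusoidal endothelium: STAB2, which marks it, was the endothelial marker that was not tested (0.696 to 3.18 FPKM in CL and 0.00611 to 0.305 in CM). RELN (reelin), made by stellate cells, was the one gene of its list that was higher in CL, though not with TPM scaling. MRC1, the mannose receptor of sinusoidal cells and macrophages, was higher in CL (log2 fold change 2.82 ± 0.20, adjusted p = 3.8e-08), while the 5 remaining macrophage markers did not pass. Without CL 1, 1 of them was called lower, and with TPM scaling 3. The red blood cell markers, mainly globins, were abundant in both tissues, 635 to 7077 FPKM in CL and 4740 to 8984 in CM, and the globin genes HBAA and HBBA did not pass (log2 fold changes -1.01 and -1.01, and -0.43 and -0.44 without CL 1), although both were called lower in CL with TPM scaling, quantile normalization or the replicate number as a block. TAL1, a factor of blood cell precursors on the same list, was called lower in CL, but not without CL 1. The 3 pancreas markers found in the table summed to at most 0.249 FPKM in CL and 0.43 in CM. In bulk tissue, fewer cells of a type and less RNA per cell cannot be told apart, here or in any result below.

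Library CL 1 stood apart from the other livers. Its mean correlation with the other CL libraries was lower than that of any of them, and it held the lowest globin sum (635 FPKM), the lowest HNF4A, SLC2A2 and SREBF1 and the highest HSPA5 and FGB of the 5.

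CL vs. CM gave 4456 DEGs, 2145 higher and 2311 lower in CL, that is 20.4% and 21.9% of the genes tested (limma, an adjusted p under 0.05 by Benjamini-Hochberg, with a log2 fold change beyond 1 in either direction). DEG stands for differentially expressed gene. The study reports more DEGs between CL and CM, from DESeq2 at the same nominal thresholds. The fit and the filter on genes differ here, and the part of each in that gap was not tested. The groups did not overlap in 55.4% of the tested genes. These shares are the background for every count of called or non-overlapping genes in a list above or below. The median log2 fold change over all tested genes was 0.02. When every library was instead scaled to one common sum (TPM), that median moved to -0.91 and the split of the calls to 1256 higher and 4875 lower, 20.5% and 79.5% of 6131, against 48.1% and 51.9% on the deposited scale. The shift is of about 1 log2 unit. Fold changes on log2(FPKM + 1) understate the change of low genes. Where a tissue had 0 fragments in all of its libraries, a fold is given as a lower bound against 3 fragments over the group.

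The 10 most abundant transcripts of each tissue shared 1 gene, FTH1. In CL, albumin alone made up 15.2% of the summed mean FPKM. Among those that followed were APOA1, the main protein of high-density lipoprotein (29388 ± 11689 FPKM in CL against 38 ± 21.9 FPKM in CM), the entry LOC101798824, described as ovoinhibitor (21777 ± 3806 FPKM in CL against 12.8 ± 12.9 FPKM in CM), the ferritin heavy chain FTH1, the fibrinogen chains FGB and FGG, transferrin (TF), the liver fatty acid-binding protein LOC101793493 and transthyretin (TTR). In CM the leading transcripts were ACTA1 (6.9%) and GAPDH (5.67%), then FTH1, the essential myosin light chain MYL1, HBBA, the fast troponin I TNNI2, HBAA, the fast troponin T TNNT3, EEF1A2 and tropomyosin TPM1. FTH1, an iron store, had 12572, 18845, 25534, 13354 and 25088 FPKM in CL 1 to 5, against 12589.9, 13385, 13481, 6163 and 15397 FPKM in CM 1 to 5, and it did not pass the test (log2 fold change 0.65 ± 0.36, adjusted p = 0.132). GAPDH, often used as a reference gene, had 1393, 2286, 2854, 1688 and 2214 FPKM in CL 1 to 5, against 26427, 10930.4, 27423, 22657 and 14508 FPKM in CM 1 to 5 and was lower in CL without overlap (log2 fold change -3.24 ± 0.34, adjusted p = 1.8e-06). Errors after a log2 fold change are standard errors of limma, with 5 libraries in each tissue.

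**Figure D1:**
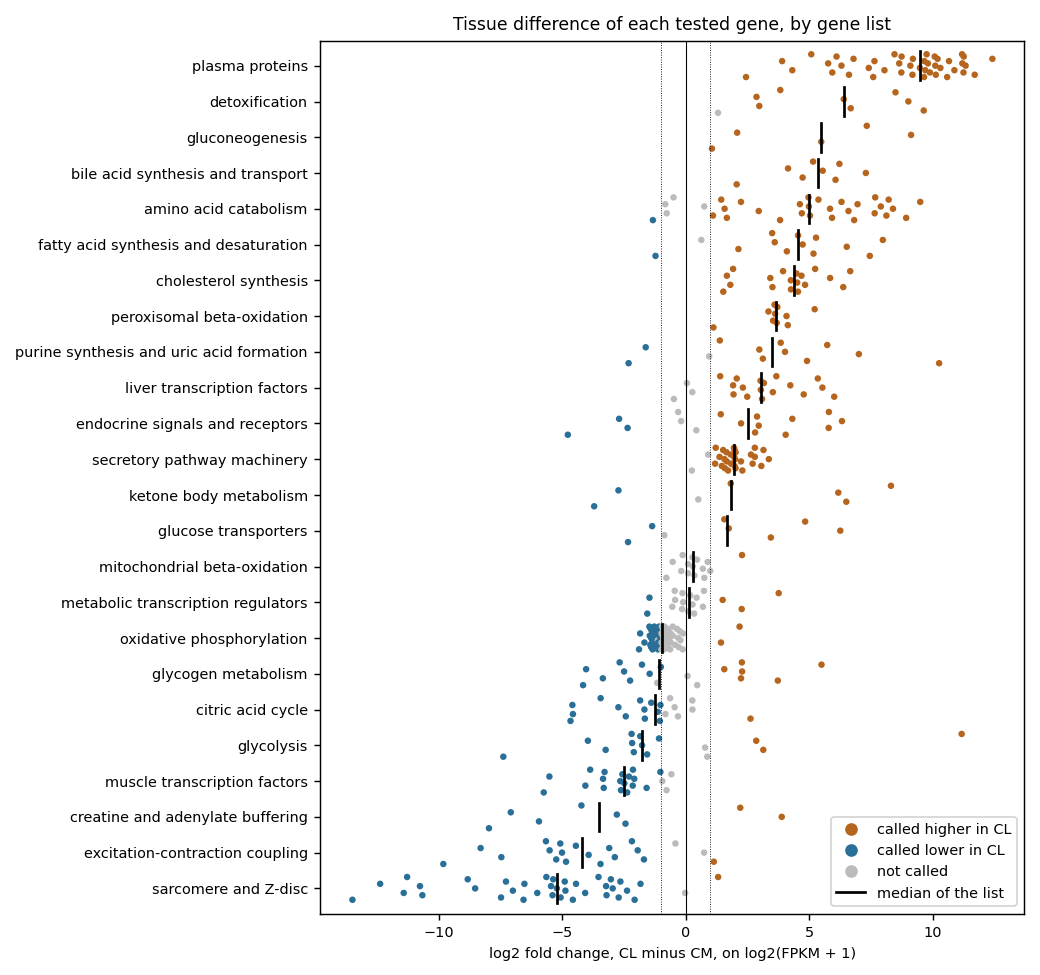
Log2 fold change (CL minus CM, on log2(FPKM + 1)) of each tested gene, 1 row per programme or transcription factor list, with genes called higher in CL in brown, genes called lower in blue, genes not called in grey and the list's median as a black bar. Of these lists, plasma proteins have the highest median (9.49) and sarcomere and Z-disc genes the lowest (-5.22), while mitochondrial beta-oxidation (0.29) and the metabolic regulators (0.14) lie next to 0 and turn negative with TPM scaling.

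Transcription factors of each tissue were present in their own tissue and, for the most part, at a low level in the other. Of the 26 factors listed for the liver, 21 had an entry in the table and 20 passed the filter. In this list 17 of 20 tested genes were higher in CL, 0 were lower and 3 did not pass, with a median log2 fold change of 3.04. For the muscle, 26 of 27 listed factors had an entry and 21 passed the filter, and 0 of 21 tested genes were higher in CL, 18 were lower and 3 did not pass, with a median of -2.49. The members of both lists were chosen for their known role in the tissue, so their direction is a check of the lists, and the levels, their order and the exceptions are described. With TPM scaling the counts were 16 higher and 1 lower for the liver list and 0 higher and 21 lower for the muscle list.

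The nuclear receptor NR1H4 (FXR), which senses bile acids, was the liver factor with the largest difference. NR1H4 had 133, 65.5, 59.4, 30.6 and 75.1 FPKM in CL 1 to 5, against 0, 0, 0.0259, 0.0215 and 0.0935 FPKM in CM 1 to 5 (log2 fold change 6.01 ± 0.29, adjusted p = 1.1e-09), so the groups were far apart and 2 muscles had no fragment at all. NR0B2 (SHP), a repressor that FXR induces in mammals, averaged 9.35 ± 4.14 FPKM in CL and 0.0663 ± 0.0626 FPKM in CM. HNF4A, the central nuclear receptor of the hepatocyte, was lower than FXR in every liver, with 1.08, 12.2, 18.3, 13.2 and 8.28 FPKM in CL 1 to 5, against 0.0913, 0.0123, 0.184, 0.0889 and 0.0968 FPKM in CM 1 to 5 (log2 fold change 3.09 ± 0.47, adjusted p = 6.5e-05). The lowest liver, CL 1, was still above every muscle. LOC101797468, described as hepatocyte nuclear factor 4-beta, was more abundant than HNF4A in every liver, with 46.8, 65.8, 61.7, 38.1 and 37.8 FPKM in CL 1 to 5, against 0.0181, 0.205, 0.073, 0.0453 and 0.115 FPKM in CM 1 to 5. This entry was chosen after its values were seen.

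The forkhead factors FOXA1 and FOXA2 open liver chromatin in development. FOXA1 had 49.2, 37.3, 80.8, 29.8 and 47.2 FPKM in CL 1 to 5, against 0, 0.0166, 0, 0.0515 and 0.0187 FPKM in CM 1 to 5 (log2 fold change 5.53 ± 0.22, adjusted p = 1.7e-10). FOXA2 averaged 12.5 ± 4.42 FPKM in CL and had 0 fragments in all 5 CM libraries, which puts it at least 1052-fold higher in CL. CEBPA, the C/EBP factor of energy metabolism in hepatocytes, had 58.1, 99.3, 134, 130.2 and 106 FPKM in CL 1 to 5, against 2.73, 3.63, 1.83, 2.45 and 3.26 FPKM in CM 1 to 5 (log2 fold change 4.78 ± 0.23, adjusted p = 9.4e-10). CEBPB was higher in CL as well (27.1 ± 4.15 FPKM in CL against 4.12 ± 1.46 FPKM in CM), whereas CEBPD, an acute phase member of the family, was at 78.3 to 309 FPKM in CL and 159 to 236 in CM and did not pass (log2 fold change 0.05 ± 0.33, adjusted p = 0.91). ONECUT1, ONECUT2, PROX1, GATA4, GATA6, ESR1 (the estrogen receptor) and NR5A2 were higher in CL, with log2 fold changes of 1.39 to 4.24. With TPM scaling NR5A2 was not called. NR2F2 and TBX3 were listed as liver factors and did not pass.

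XBP1 and CREB3L3 are the factors of the list that serve the secretory pathway, XBP1 as the regulator of endoplasmic reticulum capacity and CREB3L3 as a membrane-bound factor of the fasted liver. XBP1 was the most abundant liver factor and had 609, 358, 381, 333 and 394 FPKM in CL 1 to 5, against 44.3, 37.4, 32.2, 30.6 and 28.5 FPKM in CM 1 to 5 (log2 fold change 3.53 ± 0.19, adjusted p = 4e-09). Every liver was above every muscle, and CL 1 was the highest. CREB3L3 averaged 50.2 ± 23.3 FPKM in CL and 0.123 ± 0.0899 FPKM in CM.

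In muscle, the MyoD family was complete. MYOD1, MYF5, MYF6 and MYOG, basic helix-loop-helix factors that commit and differentiate muscle cells, had 0 fragments in every liver. MYOD1 had 0 FPKM in all 5 CL libraries, against 46.8, 37.2, 80.3, 32.5 and 40.5 FPKM in CM 1 to 5, which is at least 801-fold lower in CL. The means of MYF5, MYF6 and MYOG in CM were 16.7, 9.49 and 3.52 FPKM, so that MYOD1 was the leading member and MYOG, the differentiation factor, the lowest. EYA4, a transcriptional cofactor, averaged 0.00259 ± 0.00578 FPKM in CL against 4.69 ± 1.05 FPKM in CM. EYA1, of the same family, had 0 fragments in CL and averaged 5.27 FPKM in CM. SMYD1, a muscle methyltransferase needed for myosin assembly, was second to TEAD4 in mean level in CM, with 0, 0, 0, 0.074 and 0.245 FPKM in CL 1 to 5, against 66.8, 32.3, 77.9, 58 and 56.9 FPKM in CM 1 to 5 (log2 fold change -5.75 ± 0.21, adjusted p = 6.7e-11).

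The MEF2 and SRF factors, which drive contractile genes but also act in other cells, differed as well. MEF2A had 8.7, 4.84, 4.13, 5.62 and 4.77 FPKM in CL 1 to 5, against 33, 29, 31.1, 28.1 and 42.3 FPKM in CM 1 to 5 (log2 fold change -2.37 ± 0.19, adjusted p = 1.2e-07). MEF2C averaged 14.3 ± 5.3 FPKM in CL against 43.1 ± 3.48 FPKM in CM. SRF averaged 4.94 ± 1.84 FPKM in CL against 27.4 ± 5.64 FPKM in CM. TEAD4, which binds muscle-type promoters with Hippo pathway cofactors, was at 4.03 to 8.07 FPKM in CL and 61.9 to 69.7 in CM. TCF12, SOX6 and SIX4 did not pass, at -0.58, -0.78 and -0.95, although SIX4 was called lower without CL 1 or without CM 2 and all of them with TPM scaling. PAX7, the marker of satellite cells, averaged 0.0252 FPKM in CL and 1.76 in CM and was below the filter, as were VGLL2, TBX1 and MEF2B.

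Of 18 tested regulators of energy metabolism, 3 were higher and 2 lower in CL, and 13 did not pass, where 20.4% and 21.9% of all tested genes were called. With TPM scaling 2 were higher and 6 lower. PPARA, which switches on fatty acid oxidation, had 37.3, 43.8, 25.5, 32.9 and 27.5 FPKM in CL 1 to 5, against 2.21, 0.468, 1.64, 2.27 and 1.32 FPKM in CM 1 to 5 (log2 fold change 3.77 ± 0.23, adjusted p = 1.1e-08). SREBF2, the regulator of cholesterol synthesis, averaged 41.4 ± 21 FPKM in CL and 6.85 ± 0.433 FPKM in CM (log2 fold change 2.27 ± 0.32, adjusted p = 3e-05), and KLF15 was also higher in CL (log2 fold change 1.50 ± 0.20, adjusted p = 2e-05; not called with TPM scaling). SREBF1, the regulator of fatty acid synthesis, had 2.07, 26, 35.9, 8.74 and 23.3 FPKM in CL 1 to 5, against 10.2, 6.31, 9.03, 8.43 and 6.24 FPKM in CM 1 to 5 and did not pass (log2 fold change 0.74 ± 0.55, adjusted p = 0.252). CL 1 lay below every muscle and CL 4 within their range, and without CL 1 SREBF1 was called higher in CL (log2 fold change 1.31). MLXIPL (ChREBP), which responds to glucose, had 0.7, 10.7, 19.2, 12.7 and 6.52 FPKM in CL 1 to 5, against 0, 0.104, 0.0185, 0.0611 and 0.0166 FPKM in CM 1 to 5. It missed the filter because CL 1 was below 1 FPKM, and so has no test, but the groups did not overlap. Its paralog MLXIP did not pass. FOXO3, a factor of fasting and atrophy, was lower in CL with 6.91, 5.3, 5.2, 9.04 and 5.1 FPKM in CL 1 to 5, against 33.2, 11.9, 19.9, 18.1 and 22.8 FPKM in CM 1 to 5 (log2 fold change -1.56 ± 0.24, adjusted p = 7.6e-05), and so was TFEB (-1.47). PPARGC1A, ESRRG, NRF1, TFAM, NR1H3, NFE2L2 and the clock repressors NR1D1 and NR1D2 had log2 fold changes between -0.15 and 0.70 and did not pass.

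**Figure D2:**
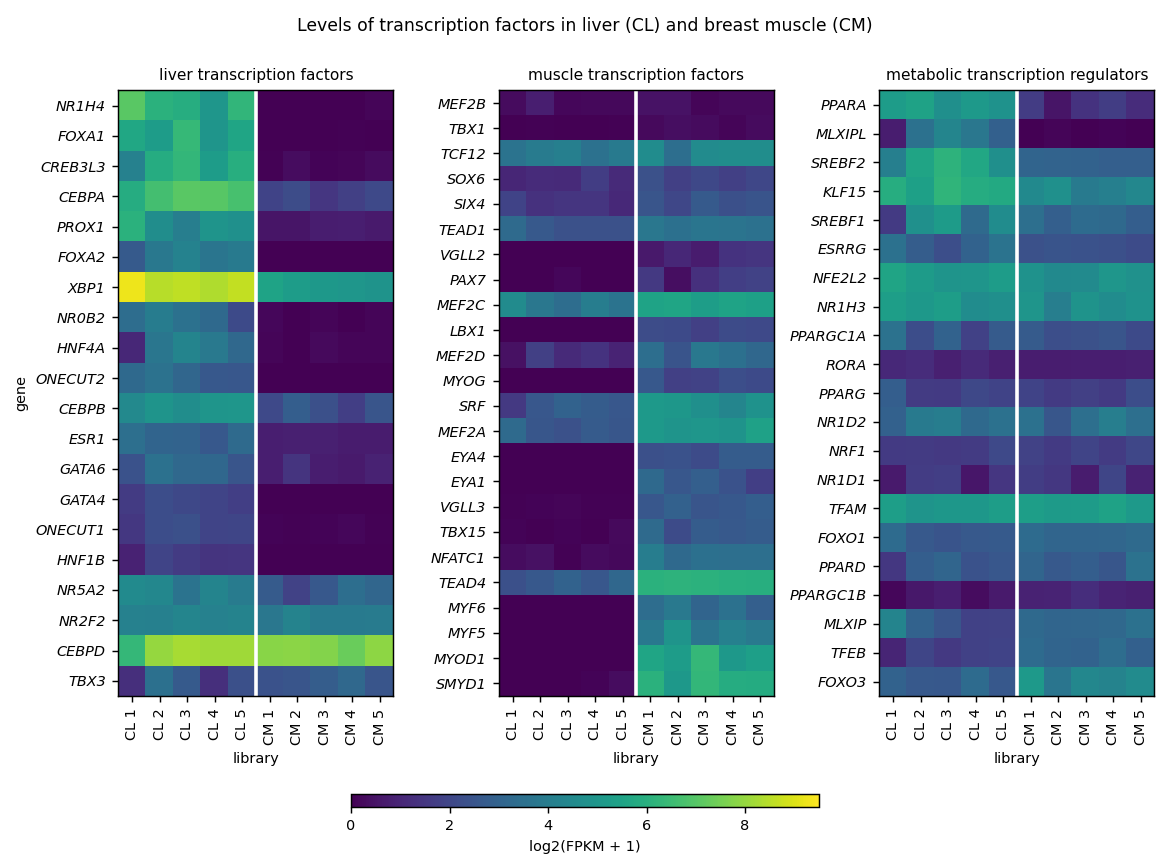
Level of the transcription factors reported here, as log2(FPKM + 1) by colour, in CL 1 to 5 (left of the white line) and CM 1 to 5 (right of it), 1 panel per list with genes ordered by the difference of the tissue means. NR1H4, FOXA1 and CREB3L3 are bright in liver and dark in muscle, MYOD1 and SMYD1 the reverse, while TFAM and NR1D2 have a like colour in both.

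The table assigns a protein domain to each gene, which allows families to be counted without choosing their members. Of the 14 homeobox genes that passed the filter, 0 were higher in CL and 10 were lower, among them MEOX2, SIX2 and HOXA7, against 20.4% and 21.9% of all tested genes. HOX genes keep a record of position along the body in muscle and connective tissue cells. Of 22 nuclear receptors, 9 were higher and 3 lower in CL. The lower ones were NR4A1, NR0B1 and RARB. In the zinc finger class, 11 of 20 genes were lower in CL, among them KLF2, KLF5 and SNAI2, and 4 of 10 Ets factors were, led by ERG and FLI1, factors of endothelial cells. LIM domain genes were lower in 15 of 22 cases and genes with a collagen domain in 18 of 24, with 0 higher in either family. Several other families differed in the other direction. In CL 23 of 25 tested cytochrome P450 genes, 11 of 14 serpins, 20 of 25 genes with a trypsin domain and 32 of 40 short-chain dehydrogenases were higher. Not every family counted was one-sided, and of 70 tested Ras genes 11 were higher and 13 lower in CL. The table gives 1 domain per gene, so these are not complete families.

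Isoform pairs were examined next. Of 42 pairs of a liver form and a muscle form set from textbook biology, 27 had both genes in the table and 25 had both tested. In 13 of these the liver form was higher and the muscle form lower in CL, and in 0 the reverse held. The muscle form was lower in CL in 23 of 25 pairs, while the liver form was higher in 15, lower in 4 and not called in the other 6. The pairs were chosen for the known tissue of each form, so their direction is a check of the list. Over all tested genes 20.4% were higher and 21.9% lower in CL. With TPM scaling 7 pairs were opposed and with quantile normalization 9. The share of the liver form in the summed FPKM of a pair does not depend on the scaling. It was above 50% in every CL library and below 50% in every CM library for 17 of 27 pairs, and it did not overlap between the tissues for 24. Only uniquely mapped reads were counted, so close copies may have lost reads in both tissues. By the study's account the share of reads with several positions was larger in every CM library than in any CL library. Its part in the values of the pairs was not tested.

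Among the enzymes of carbohydrate metabolism, fructose-1,6-bisphosphatase, the step that reverses glycolysis in glucose production, exchanged its form almost fully. FBP1 had 1763, 1546, 1975, 1389 and 1762 FPKM in CL 1 to 5, against 1.54, 1.73, 1.51, 3.7 and 1.95 FPKM in CM 1 to 5 (log2 fold change 9.13 ± 0.19, adjusted p = 8.1e-13). FBP2, the muscle gene, had 0.261, 0.0528, 0.469, 0.0469 and 0.259 FPKM in CL 1 to 5, against 209, 109, 181, 166 and 231 FPKM in CM 1 to 5 (log2 fold change -7.18 ± 0.20, adjusted p = 7e-12), and the share of FBP1 was 99.98 to 100% in CL and 0.731 to 2.18% in CM. The targeting subunit that brings protein phosphatase 1 to glycogen was PPP1R3B in liver and PPP1R3A in muscle, where PPP1R3A had 0 FPKM in all 5 CL libraries, against 13.2, 12.9, 17.4, 27.2 and 16.9 FPKM in CM 1 to 5. The alpha subunit of phosphorylase kinase was PHKA2 in liver and PHKA1 in muscle, with a PHKA2 share of 90.2 ± 3.98% in CL and 4.41 ± 2.91% in CM. Lactate dehydrogenase did not exchange its main form. LDHB, set as the liver form, was higher in CL, with 713, 534, 952, 428 and 1426 FPKM in CL 1 to 5, against 136, 100.2, 121, 65.8 and 98.7 FPKM in CM 1 to 5 (log2 fold change 2.86 ± 0.31, adjusted p = 3.3e-06), but LDHA, set as the muscle form, was the main form in both tissues, with 6703, 2660.1, 2932, 1390 and 3025 FPKM in CL 1 to 5, against 2074, 1267, 1817, 1785 and 1693 FPKM in CM 1 to 5 (log2 fold change 0.79 ± 0.36, adjusted p = 0.0686; the direction turned with TPM scaling). Its log2 fold change was 0.49 without CL 1, and it was called higher without CL 4. The share of LDHB was 9.62 to 32% in CL and 3.56 to 7.33% in CM. The lactate carrier SLC16A1 made up 96.4 to 99.76% in CL and 91.7 to 97.6% in CM of its pair with SLC16A3. HK2, a hexokinase of muscle, averaged 0.774 ± 0.27 FPKM in CL against 4.27 ± 1.01 FPKM in CM.

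Genes of fatty acid handling also exchanged form. CPT1, which admits long-chain fatty acids to mitochondria, was CPT1A in liver and CPT1B in muscle. CPT1A had 171, 82.8, 129, 72.5 and 161 FPKM in CL 1 to 5, against 8.37, 6.93, 9.97, 8.89 and 10.2 FPKM in CM 1 to 5 (log2 fold change 3.58 ± 0.24, adjusted p = 2.7e-08), and CPT1B had 0.562, 0.522, 1.23, 0.463 and 1.21 FPKM in CL 1 to 5, against 208, 61.7, 141, 127 and 112 FPKM in CM 1 to 5 (log2 fold change -6.11 ± 0.27, adjusted p = 5.7e-10). The share of CPT1A was 99.05 to 99.67% in CL and 3.86 to 10.1% in CM. Of the cytosolic carriers, FABP1 averaged 192 ± 113 FPKM in CL against 0.452 ± 0.735 FPKM in CM, and FABP3 averaged 0.113 ± 0.2 FPKM in CL against 123 ± 70.4 FPKM in CM. A further entry described as a liver fatty acid-binding protein, LOC101793493, was more abundant than FABP1 in liver, with 11267, 7449.9, 10628, 9556 and 13151 FPKM in CL 1 to 5, against 4.33, 0.8, 0.499, 15.7 and 21.2 FPKM in CM 1 to 5. For acetyl-CoA carboxylase, ACACA makes malonyl-CoA for synthesis and ACACB makes it to restrain CPT1. ACACA had 36, 123, 105, 107 and 51.1 FPKM in CL 1 to 5, against 2.66, 1.37, 2.58, 2.33 and 2.75 FPKM in CM 1 to 5 (log2 fold change 4.55 ± 0.31, adjusted p = 3.4e-08), and ACACB had 0, 0.0996, 0.0996, 0.0884 and 0.0683 FPKM in CL 1 to 5, against 13.9, 4.95, 7.92, 12 and 5.6 FPKM in CM 1 to 5 (log2 fold change -3.11 ± 0.23, adjusted p = 7.6e-08). Lipin, which makes diacylglycerol, did not follow the list, since LPIN1, set as the muscle form, was higher in CL together with LPIN2 (log2 fold changes 2.21 and 3.57).

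Carriers and sensors of the adenylate pool exchanged as well. The mitochondrial ADP/ATP carrier was SLC25A5 in liver and SLC25A4 in muscle, with an SLC25A5 share of 73.2 ± 7.99% in CL and 4.56 ± 1.8% in CM (SLC25A5 was not called higher with TPM scaling), and the aspartate-glutamate carrier was SLC25A13 in liver and SLC25A12 in muscle (97.3 ± 1.23% in CL and 9.86 ± 4.86% in CM). Adenylate kinase AK1, which recycles ADP in contracting fibres, had 2.17, 6.65, 8.8, 6.59 and 5.65 FPKM in CL 1 to 5, against 745, 799, 1146, 1066 and 765 FPKM in CM 1 to 5 (log2 fold change -7.09 ± 0.27, adjusted p = 1.3e-10). AMPK, the energy sensor, had different leading forms of its alpha and beta subunits. PRKAA2 had 0, 0.0253, 0, 0.0337 and 0 FPKM in CL 1 to 5, against 22.7, 17.6, 24.1, 24.1 and 15.3 FPKM in CM 1 to 5 (log2 fold change -4.40 ± 0.15, adjusted p = 3.1e-11), while PRKAA1 was higher in CL (log2 fold change 1.87 ± 0.15, adjusted p = 1.7e-07). The beta subunits PRKAB1 and PRKAB2 were opposed too. With TPM scaling PRKAA1 and PRKAB1 were not called, so that neither pair was opposed. The gamma subunit PRKAG1 did not pass (20.5 ± 6.05 FPKM in CL against 26.7 ± 4.46 FPKM in CM), and PRKAG3 was lower in CL (0.0731 ± 0.102 FPKM in CL against 19.6 ± 3.9 FPKM in CM). AMPD1, which deaminates AMP, averaged 0.392 ± 0.188 FPKM in CL against 85.6 ± 17.7 FPKM in CM, and ADSS1, of the same purine nucleotide cycle, 3.28 ± 0.541 FPKM in CL against 78.7 ± 6.33 FPKM in CM. Their general forms AMPD2 and ADSS2 did not pass, although ADSS2 was called higher without CL 4.

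In the cytoskeleton the general form was present in both tissues, except that CAPN2 averaged only 0.383 ± 0.206 FPKM in CL against 3.53 ± 0.949 FPKM in CM. ACTA1 and ACTN2 were lower in CL (-13.50 and -8.53), but ACTB, the cytoplasmic actin listed as the liver form, was lower in CL as well (649.9 ± 161 FPKM in CL against 1365 ± 248 FPKM in CM), as were TMOD3 and CAPN2. ACTB lies at the fold threshold and was not called without CL 1 or without CM 2. ACTN4 averaged 34.5 ± 12.3 FPKM in CL against 32.5 ± 6.81 FPKM in CM and did not pass. Of the sodium pump, ATP1B1 did not pass (139 ± 25.6 FPKM in CL against 130.3 ± 41.7 FPKM in CM), while ATP1B4 was lower in CL (0.404 ± 0.153 FPKM in CL against 78.6 ± 18.7 FPKM in CM).

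Components of translation differed too. EEF1A2, the elongation factor of muscle and neurons, was one of the leading transcripts of muscle and nearly absent from liver, with 0.056, 0.0908, 0.101, 0.161 and 0 FPKM in CL 1 to 5, against 2911, 1950.5, 3336, 3119.5 and 2708 FPKM in CM 1 to 5 (log2 fold change -11.32 ± 0.16, adjusted p = 3.8e-14). EEF1A1, the general form, had 7074, 7949, 9296, 5889 and 8989 FPKM in CL 1 to 5, against 2024, 1943, 1859, 1741 and 2280.4 FPKM in CM 1 to 5 (log2 fold change 1.98 ± 0.23, adjusted p = 5.1e-06; not called with TPM scaling), and its share of the pair was 100% in every CL library after rounding and 35.8 to 49.9% in CM. RPL3L, a ribosomal protein of striated muscle, had 0, 0, 0, 0.0538 and 0 FPKM in CL 1 to 5, against 90.4, 81.9, 132, 90.4 and 92.8 FPKM in CM 1 to 5 (log2 fold change -6.59 ± 0.14, adjusted p = 9.4e-13), and its general counterpart RPL3 still made up 99.99 to 100% in CL and 66.6 to 81% in CM of that pair.

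**Figure D3:**
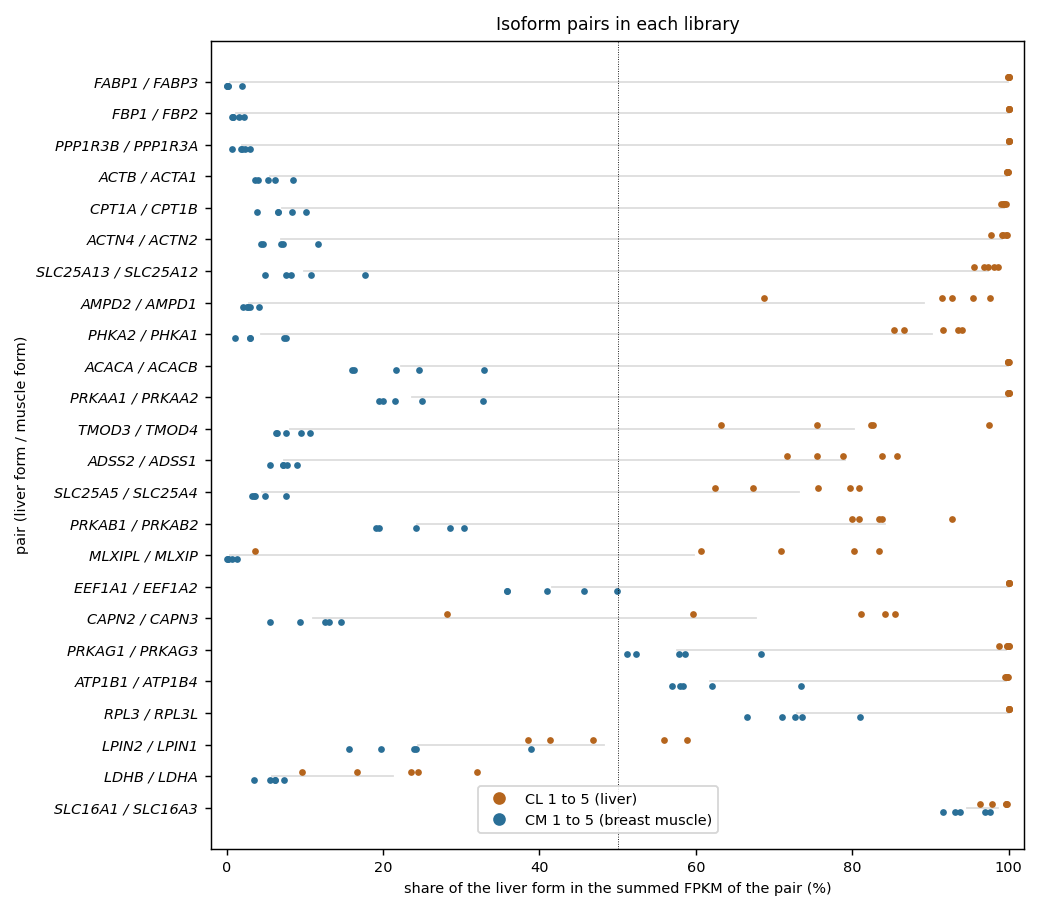
Share of the liver form in the summed FPKM of the isoform pairs reported here, in percent, with CL 1 to 5 in brown above CM 1 to 5 in blue and a grey line between the tissue means. FBP1 with FBP2 and CPT1A with CPT1B have shares of 99.98 to 100% in CL and 0.731 to 2.18% in CM and of 99.05 to 99.67% in CL and 3.86 to 10.1% in CM, while LDHB with LDHA and SLC16A1 with SLC16A3 keep the same leading form in both.

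Plasma proteins formed the largest programme of the liver. All 43 tested genes were higher in CL (median log2 fold change 9.49 against 0.02 over all tested genes), and together they made up 31.2 to 38.6% of the summed FPKM of CL and 0.0217 to 0.0922% of that of CM. The list spans carriers, apolipoproteins, clotting factors and complement. Genes of this list, like those of the bile acid and sarcomere lists, were chosen as known for their tissue. Their direction is therefore a check of the lists, and the levels and exceptions are described. FGB, the fibrinogen beta chain, had 31549, 15118, 10784, 12449 and 14739.5 FPKM in CL 1 to 5, against 6.95, 0.869, 1.47, 14 and 13.8 FPKM in CM 1 to 5 (log2 fold change 11.34 ± 0.57, adjusted p = 1.7e-09), with CL 1 the highest liver. APOA1 had 13120.2, 29638, 42966, 23732 and 37482 FPKM in CL 1 to 5, against 20, 14.7, 33.8, 59.1 and 62.2 FPKM in CM 1 to 5 (log2 fold change 9.66 ± 0.43, adjusted p = 5.7e-10), and there CL 1 was the lowest. The smallest differences were those of PROS1 (2.44) and F10 (3.90). SAA2, an acute phase apolipoprotein outside the list, was at 4958 to 7449 FPKM in CL and 1.19 to 13.7 in CM.

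The machinery that exports secreted proteins was also higher. In the secretory pathway list 28 of 30 tested genes were higher in CL, 0 were lower and 2 did not pass, with a median of 1.96. The largest were P4HB, a protein disulfide isomerase (529 ± 95.2 FPKM in CL against 50.9 ± 11.4 FPKM in CM), and LMAN1 and MCFD2, the receptor pair that carries clotting factors out of the endoplasmic reticulum (log2 fold changes 3.15 and 3.06). HSPA5 (BiP), the chaperone of the endoplasmic reticulum, had 1812, 359.7, 433, 706 and 384 FPKM in CL 1 to 5, against 120.4, 64.4, 114, 65.6 and 76.5 FPKM in CM 1 to 5 (log2 fold change 2.80 ± 0.41, adjusted p = 4.3e-05), and CL 1 was the highest liver by far. With TPM scaling 9 of the 30 were called higher and none lower, and without CL 1 27 on the deposited scale.

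Genes of glucose release were liver genes. All 5 gluconeogenesis genes tested were higher in CL (4 with TPM scaling). FBP1 led them, and G6PC1, the last step that frees glucose, had 103, 468, 389, 282 and 215 FPKM in CL 1 to 5, against 0.421, 0.661, 0.325, 0.662 and 1.06 FPKM in CM 1 to 5 (log2 fold change 7.33 ± 0.34, adjusted p = 7.2e-10). PCK1, the enzyme that starts the pathway from oxaloacetate, was nearly absent from muscle and varied widely between livers, with 18.4, 6.17, 813, 7.82 and 205 FPKM in CL 1 to 5, against 0, 0, 0.0676, 0.0186 and 0.0406 FPKM in CM 1 to 5 (log2 fold change 5.49 ± 1.09, adjusted p = 0.00064). CL 3 and CL 5 stood far above the other livers. SLC2A2 (GLUT2), through which glucose leaves hepatocytes, had 19.7, 113, 152, 111 and 99.4 FPKM in CL 1 to 5, against 0.0394, 0.0319, 0, 0.0494 and 0.358 FPKM in CM 1 to 5 (log2 fold change 6.26 ± 0.43, adjusted p = 3.6e-08), and the fructose carrier SLC2A5 and the urate carrier SLC2A9 were higher in CL too. The carriers SLC2A12 and SLC2A3 were lower in CL (log2 fold changes -2.34 and -1.36).

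In glycolysis 3 of 15 tested genes were higher in CL, against 20.4% of all tested genes. In that list 10 genes were lower, against 21.9%, and 2 did not pass (median -1.77). LDHB and the liver form PFKL were among the higher ones. PKM, pyruvate kinase M, had 4.62, 8.82, 11.7, 7.66 and 5.91 FPKM in CL 1 to 5, against 1916, 878, 1855, 1343 and 1323 FPKM in CM 1 to 5 (log2 fold change -7.39 ± 0.26, adjusted p = 6e-11), and HK1, the hexokinase that traps glucose, averaged 0.678 ± 0.187 FPKM in CL against 25.4 ± 4.9 FPKM in CM. TPI1, PGAM1, GPI and PGK1, which act in the middle of the pathway, were lower in CL by 1.08 to 2.10 on the log2 scale. ENO1 did not pass (2562 ± 262 FPKM in CL against 1412 ± 261 FPKM in CM), and its direction turned with TPM scaling. PFKM, ALDOA, PGAM2, ENO3 and PKLR did not match an entry and were not analysed here, so the sum of the list lacks main muscle genes. PDK4, which shuts pyruvate out of the citric acid cycle in a fast, had 254, 26.4, 41, 54.4 and 30 FPKM in CL 1 to 5, against 1530.5, 884, 999, 919 and 982 FPKM in CM 1 to 5 (log2 fold change -4.24 ± 0.50, adjusted p = 6.5e-06), with CL 1 and CM 1 the highest of their tissues. PDK4 lies outside the lists and was chosen after its values were seen.

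Both tissues held glycogen genes, and the targeting subunits, the phosphorylase kinase alpha subunits and the glycogenins differed in form. GYS1 and PYGM, the muscle forms of synthase and phosphorylase, did not match an entry and were not analysed here. A change of form is thus not shown for these enzymes. In the list 6 of 18 tested genes were higher in CL, 9 were lower and 3 did not pass. Among all tested genes 20.4% were higher and 21.9% lower. GYS2, the liver glycogen synthase, had 30.2, 58.7, 63.8, 40.5 and 43.3 FPKM in CL 1 to 5, against 0, 0, 0.0189, 0.11 and 0.0341 FPKM in CM 1 to 5 (log2 fold change 5.50 ± 0.19, adjusted p = 4.3e-11), and PYGL, the liver phosphorylase, had 38.2, 103, 121, 96 and 110 FPKM in CL 1 to 5, against 16.5, 13.8, 23.7, 15.6 and 17.5 FPKM in CM 1 to 5 (log2 fold change 2.28 ± 0.28, adjusted p = 1e-05). GBE1, the branching enzyme, was higher in CL (78.1 ± 10.6 FPKM in CL against 5 ± 1.22 FPKM in CM). Of the glycogenins, which prime the polymer, GYG2 was higher (8.06 ± 1.88 FPKM in CL against 2.04 ± 0.453 FPKM in CM; not called with TPM scaling) and GYG1 lower in CL (3.62 ± 0.896 FPKM in CL against 46.1 ± 7.52 FPKM in CM).

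Most genes of the citric acid cycle were lower in CL. Here 1 of 20 tested genes was higher in CL, 13 were lower and 6 did not pass (median -1.26). CS, citrate synthase, had 1.5, 9.28, 6.25, 6 and 5.24 FPKM in CL 1 to 5, against 159.8, 117, 173, 158 and 116 FPKM in CM 1 to 5 (log2 fold change -4.57 ± 0.31, adjusted p = 3.2e-08). IDH3A and SUCLA2, the ADP-forming succinyl-CoA synthetase subunit, were lower in CL by a like amount (-4.67 and -4.59). The one gene higher in CL was SUCLG2, the GDP-forming counterpart of SUCLA2, with 81.1 ± 23.1 FPKM in CL against 12.2 ± 3.17 FPKM in CM. MDH1, PDHB, DLAT, FH, PDHA1 and DLD did not pass.

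Genes of oxidative phosphorylation differed by less. Of 70 tested, 32 were lower in CL, 2 were higher and 36 did not pass, and 68 of the 70 had a negative log2 fold change (median -0.98). ATP5F1A, a catalytic subunit of ATP synthase, had 505, 474, 607, 379 and 633 FPKM in CL 1 to 5, against 2020, 931, 1745, 1388 and 981 FPKM in CM 1 to 5 (log2 fold change -1.40 ± 0.26, adjusted p = 0.00036). Many of them lie close to the fold threshold, and 21 were called lower without CL 1 and 68 with TPM scaling. The genes higher in CL were COX6A1 and COX7A2, the liver forms of their subunits (COX7A2 was not called with TPM scaling). Their muscle forms COX6A2 and COX7A1 were not analysed here. Among transcripts of the mitochondrial genome, COX1, COX2, COX3, CYTB and ATP6 were lower in CL, with log2 fold changes of -2.02 to -3.76. The groups of COX2 and ATP6 overlapped. ND2, ND3, ND4L, ND5, ND6 and ATP8 were lower in CL too, with log2 fold changes of -1.59 to -2.46, and the groups of ND6 overlapped. ND4 and ND1 did not pass, but both were called lower with TPM scaling. All of these mitochondrial transcripts were read after poly-T selection, and its part in their levels was not tested.

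Beta-oxidation of fatty acids takes place in mitochondria and in peroxisomes. In the mitochondrial list 1 of 15 genes, the isomerase ECI2, was higher in CL (2 without CL 1) and none was lower (median 0.29, which turned to -0.74 with TPM scaling and -0.44 with quantile normalization, and with TPM scaling 4 genes were called lower). HADHA, of the trifunctional protein, for example, averaged 144 ± 58.2 FPKM in CL against 109 ± 30.7 FPKM in CM, and the dehydrogenase ACADM averaged 119.9 ± 26.7 FPKM in CL against 113 ± 30.1 FPKM in CM. All 10 peroxisomal genes were higher in CL (median 3.65; 9 with TPM scaling). EHHADH, the bifunctional enzyme of peroxisomes, had 116, 182, 307, 120.2 and 249 FPKM in CL 1 to 5, against 4.81, 2.98, 4.21, 4.07 and 3.51 FPKM in CM 1 to 5 (log2 fold change 5.22 ± 0.26, adjusted p = 1.5e-09), and CAT (catalase), SCP2 and HSD17B4 had log2 fold changes of 3.68 to 4.13. LOC101794508, described as mitochondrial uncoupling protein 3, was read in muscle, at 38.8 to 109 FPKM in CM with 0 fragments in every liver, and was chosen after its values were seen.

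Ketone bodies are made in liver and burnt in muscle. ACAT2, an acetyl-CoA acetyltransferase placed on the ketone body list, was higher in CL (log2 fold change 6.18). The level of ACAT2 alone is not a measure of ketone formation. OXCT1, the enzyme that lets a tissue use ketone bodies, had 1.35, 0.557, 0.384, 0.721 and 0.295 FPKM in CL 1 to 5, against 29.9, 20.7, 24.2, 21 and 10.7 FPKM in CM 1 to 5 (log2 fold change -3.71 ± 0.25, adjusted p = 2.7e-08), and BDH1 was lower in CL with 2.53, 2.82, 2.03, 2.73 and 1.82 FPKM in CL 1 to 5, against 27.4, 19.3, 19.1, 12.4 and 33.9 FPKM in CM 1 to 5 (log2 fold change -2.73 ± 0.23, adjusted p = 2.4e-07). BDH1 makes beta-hydroxybutyrate in mammalian liver. Here BDH2, a related dehydrogenase, was higher in CL (13.2 ± 2.98 FPKM in CL against 3.04 ± 1 FPKM in CM).

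In the list of fatty acid synthesis and desaturation 11 of 13 tested genes were higher in CL, 1 was lower and 1 did not pass (median 4.55). ELOVL6, which extends palmitate, showed the largest difference of the list, with 293, 506, 369, 342 and 343 FPKM in CL 1 to 5, against 0.294, 0.356, 0.352, 0.46 and 0.801 FPKM in CM 1 to 5 (log2 fold change 7.98 ± 0.17, adjusted p = 8e-13). FASN, fatty acid synthase, had 188, 151, 120.2, 268 and 129 FPKM in CL 1 to 5, against 3.44, 2.83, 3.8, 3.17 and 3.08 FPKM in CM 1 to 5 (log2 fold change 5.28 ± 0.20, adjusted p = 1.4e-10). FADS2, the delta-6 desaturase of polyunsaturated fatty acids, had 303, 571, 901, 283 and 260 FPKM in CL 1 to 5, against 1.7, 0.834, 1.34, 1.41 and 1.49 FPKM in CM 1 to 5 (log2 fold change 7.46 ± 0.31, adjusted p = 2.8e-10), and FADS1, ELOVL2 and ELOVL5 of the same pathway were higher in CL too. SCD, which makes oleate, had 16.2, 143, 38, 184 and 3.94 FPKM in CL 1 to 5, against 1.47, 1.02, 1.55, 1.14 and 1.22 FPKM in CM 1 to 5 (log2 fold change 4.10 ± 0.79, adjusted p = 0.00051). The livers with the most SCD, CL 2 and CL 4, were those with the least PCK1, which was seen in the values and not tested. ELOVL6 was highest in CL 2 and FASN in CL 4, but FADS2 was highest in CL 3, the liver with the most PCK1. DGAT2, the triglyceride-forming enzyme of mammalian liver, was the one gene of the list that was lower in CL (1.41 ± 0.303 FPKM in CL against 4.95 ± 2.42 FPKM in CM), and ME1 did not pass.

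All 18 genes of cholesterol synthesis were higher in CL (median 4.37; 14 with TPM scaling). HMGCS1, an early enzyme of the pathway, had 2020.2, 792, 1640, 833 and 1510 FPKM in CL 1 to 5, against 15.5, 15.1, 14.2, 14.9 and 11.9 FPKM in CM 1 to 5 (log2 fold change 6.38 ± 0.26, adjusted p = 2.1e-10). PMVK, MVK, MVD and FDPS differed least and were the genes not called with TPM scaling (log2 fold changes of 1.52 to 1.92). Bile acid genes were higher in CL in 8 of 8 tested cases. CYP7A1, the rate-limiting enzyme of bile acid synthesis, had 28.4, 30.8, 41.4, 83.3 and 3.29 FPKM in CL 1 to 5, against 0, 0, 0, 0.0224 and 0.0487 FPKM in CM 1 to 5 (log2 fold change 4.73 ± 0.59, adjusted p = 1e-05), the lowest liver being CL 5. ABCB11, the pump that exports bile salts, had 43.2, 87.1, 99.1, 62.6 and 88.4 FPKM in CL 1 to 5, against 0.0778, 0.0629, 0.131, 0.119 and 0.13 FPKM in CM 1 to 5 (log2 fold change 6.07 ± 0.20, adjusted p = 3.8e-11). SLC51B and SLC51A, which form a basolateral bile acid exporter, were higher too (log2 fold changes 7.30 and 6.22). CYP8B1 was low in liver (4.86 ± 3.06 FPKM in CL against 0.296 ± 0.182 FPKM in CM), and SLC10A1, the bile acid uptake carrier of mammalian liver, was at most 0.117 FPKM in any CL library and was not tested.

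**Figure D4:**
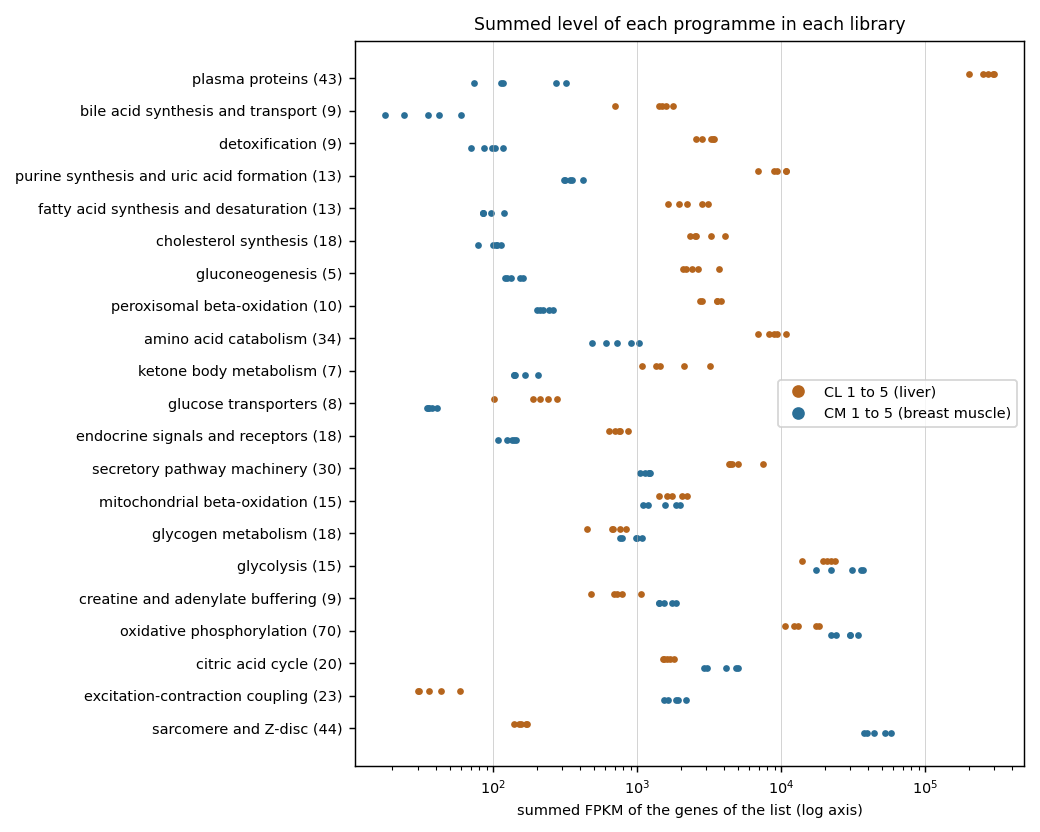
Summed FPKM of the genes of each programme list in each library, on a log axis, with CL 1 to 5 in brown above CM 1 to 5 in blue and the number of genes summed in brackets. The tissues lie far apart for plasma proteins and sarcomere genes, and they overlap for mitochondrial beta-oxidation, glycolysis and glycogen metabolism.

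In the list of amino acid catabolism 27 of 32 tested genes were higher in CL, 1 was lower and 4 did not pass (median 5.01). With TPM scaling 23 were higher and 4 lower. HPD, of tyrosine breakdown, had 1446, 740.4, 1593, 1505 and 2013 FPKM in CL 1 to 5, against 0.398, 0.124, 0.185, 1.84 and 3.95 FPKM in CM 1 to 5 (log2 fold change 9.50 ± 0.41, adjusted p = 3.5e-10), and TAT, MAT1A, BHMT and TDO2 had log2 fold changes of 8.13 to 8.93. GOT1, the cytosolic aspartate aminotransferase, was the one gene that was lower (98.3 ± 28.3 FPKM in CL against 256 ± 92.1 FPKM in CM). ASS1 and ASL, urea cycle enzymes that birds use for arginine only, averaged 4.52 and 0.257 FPKM in CL and 0.576 and 0.192 in CM and were below the filter.

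Birds excrete nitrogen as uric acid, which is made from purines, and 9 of 12 tested genes of the purine list were higher in CL (8 with TPM scaling). Their summed FPKM was 10855, 6884, 9402, 8928 and 10763 in CL 1 to 5, against 418, 342, 353, 317 and 310 in CM 1 to 5. PRPS2, which makes the activated ribose that starts the pathway, had 5969.9, 2967, 3954, 4207 and 4893 FPKM in CL 1 to 5, against 2.62, 0.588, 0.587, 5.59 and 7.54 FPKM in CM 1 to 5 (log2 fold change 10.26 ± 0.45, adjusted p = 4.2e-10). ATIC, GART, PAICS and PPAT, of the steps from there to inosine monophosphate, had log2 fold changes of 4.02 to 7.01. XDH, which forms uric acid, had 68.4, 43.9, 57.3, 110.2 and 96.4 FPKM in CL 1 to 5, against 6.7, 2.91, 3.98, 3.01 and 4.31 FPKM in CM 1 to 5 (log2 fold change 3.85 ± 0.26, adjusted p = 3.2e-08), and GLUL, which supplies the nitrogen as glutamine, averaged 599 ± 98.5 FPKM in CL against 76 ± 18.8 FPKM in CM. PRPS1, the other form of the first enzyme, and ADA were lower in CL (log2 fold changes -1.62 and -2.32).

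Creatine phosphate and adenylate kinase buffer ATP in contracting fibres, and 6 of 8 tested genes of that list were lower in CL. CKMT2, mitochondrial creatine kinase, had 0.184, 0, 0.0415, 0.0331 and 0 FPKM in CL 1 to 5, against 291, 212, 313, 288 and 224 FPKM in CM 1 to 5 (log2 fold change -7.97 ± 0.14, adjusted p = 3.3e-13), and SLC6A8, the creatine carrier, averaged 18.9 ± 5.55 FPKM in CL against 139 ± 50.7 FPKM in CM. GAMT and GATM, which make creatine, were higher in CL (log2 fold changes 3.89 and 2.21). Of the detoxification genes 8 of 9 tested were higher in CL, led by ALDH1A1 with 1205, 1047, 968, 1002 and 894 FPKM in CL 1 to 5, against 0.281, 0.136, 0, 0.469 and 0.588 FPKM in CM 1 to 5 (log2 fold change 9.64 ± 0.16, adjusted p = 1.7e-13), and AOX1 did not pass.

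Of the endocrine signals and receptors tested, 10 of 16 were higher and 3 lower in CL (9 and 5 with TPM scaling). The shares over all tested genes were 20.4% higher and 21.9% lower. GCGR, the glucagon receptor, had 35.8, 115, 136, 105 and 109 FPKM in CL 1 to 5, against 0.0851, 0.0459, 0.114, 0.331 and 0.206 FPKM in CM 1 to 5 (log2 fold change 6.33 ± 0.30, adjusted p = 8.8e-10). IGFBP1, a binding protein that fasting induces, had 86.1, 17.8, 123, 60.6 and 159 FPKM in CL 1 to 5, against 0.323, 0.261, 0.0651, 0.35 and 0.558 FPKM in CM 1 to 5 (log2 fold change 5.80 ± 0.45, adjusted p = 1.2e-07). The growth factors IGF1 and IGF2 and GHR, the growth hormone receptor, were higher in CL (log2 fold changes 2.81, 2.89 and 2.24). The insulin receptor INSR did not pass (7.25 ± 1.1 FPKM in CL against 5.11 ± 0.616 FPKM in CM), nor did IRS1. MSTN (myostatin), which limits muscle mass, had 0 FPKM in all 5 CL libraries, against 17.9, 30.8, 20.8, 41.2 and 27.1 FPKM in CM 1 to 5 and was at least 1214-fold lower in CL. FNDC5 and ANGPTL4 were lower in CL as well.

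Contractile genes made up the largest muscle programme. In the sarcomere and Z-disc list 1 of 37 tested genes was higher in CL, 35 were lower and 1 did not pass (median -5.22; -5.16 with genes at 0 in liver set to their bound). The fast forms TNNI2, TNNT3, TNNC2 and MYL1 led in muscle, TNNI2 with 0.356, 0.193, 0.321, 0.171 and 0.283 FPKM in CL 1 to 5, against 2797, 3115, 4318, 2887 and 2877 FPKM in CM 1 to 5 (log2 fold change -11.29 ± 0.15, adjusted p = 2.5e-14). The slow troponin I (TNNI1) averaged 4.72 FPKM in CM, and MYL2, MYL3 and TNNT2, slow or cardiac genes, had means in CM of at most 0.226 FPKM. TNNC1, the troponin C of slow and cardiac muscle, did not share this pattern. It had 0, 0, 0, 0.362 and 0 FPKM in CL 1 to 5, against 1885, 1630.5, 1983, 2002 and 1793 FPKM in CM 1 to 5, which lies within the range of the fast gene TNNC2 (1234 to 2589 FPKM in CM). CASQ2, the calsequestrin of the heart in mammals, and RYR3 were also present, CASQ2 with 0, 0.154, 0.143, 0.297 and 0.151 FPKM in CL 1 to 5, against 475, 266, 484, 356 and 286 FPKM in CM 1 to 5 (log2 fold change -8.31 ± 0.19, adjusted p = 1.1e-12) and RYR3 with 0.967, 0.615, 0.55, 1.04 and 0.624 FPKM in CL 1 to 5, against 17.3, 11.1, 15.9, 13.8 and 12.6 FPKM in CM 1 to 5. In birds RYR3 is known as a second calcium release channel of skeletal muscle. The exceptions in the list were MYL3, higher in CL at 1.64 ± 0.546 FPKM in CL against 0.0466 ± 0.0639 FPKM in CM, and TPM3, which did not pass.

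In the list of excitation-contraction coupling 1 of 20 tested genes was higher in CL, 17 were lower and 2 did not pass (median -4.19). SLN (sarcolipin), the inhibitor of the calcium pump in muscle, had 0 FPKM in all 5 CL libraries, against 1045, 836, 812, 1006 and 843 FPKM in CM 1 to 5, at least 13708-fold lower in CL. CACNA1S and CACNG1, subunits of the voltage sensor, had log2 fold changes of -5.66 and -7.47. SCN4A, the sodium channel of muscle, was the one gene higher in CL (15.4 ± 5.58 FPKM in CL against 6.37 ± 2.2 FPKM in CM, log2 fold change 1.14 ± 0.28, adjusted p = 0.00323), and its groups overlapped. It was not called with TPM scaling or without CM 2. Of skeletal myosin heavy chains the table holds several entries without a symbol. LOC101796474 was the most abundant, with 0 FPKM in all 5 CL libraries, against 737, 92.8, 600.2, 282 and 261 FPKM in CM 1 to 5, and CM 2 had the least of it (chosen after its values were seen). Genes of this family are close copies, and reads may be split or lost among them.

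Outside every list, the liver genes with the largest differences were SAA2, SPP2, PIGR, NME4, SERPINA10, LECT2, CA5A, CFI, C6 and PHGDH, with log2 fold changes of 8.16 to 10.12. PHGDH, which starts serine synthesis, had 455, 484, 1255, 1226 and 1545 FPKM in CL 1 to 5, against 1.41, 0.721, 1.52, 3.12 and 5.49 FPKM in CM 1 to 5. In muscle the largest were PRR33, MB, APOBEC2, TRIM63, NID1, ANKRD1, MGP, CAVIN1, TMEM182 and FABP5, from -9.98 to -6.62. PRR33 had 0 FPKM in all 5 CL libraries, against 1216, 584, 1169, 1339.9 and 930.5 FPKM in CM 1 to 5, and was at least 8944-fold lower in CL. TRIM63, a ubiquitin ligase of muscle atrophy, averaged 0.0123 FPKM in CL and 207 in CM.

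The spread between ducks was not the same for all genes. Over tested genes with a mean of at least 1 FPKM, the median coefficient of variation was 0.275 in CL and 0.178 in CM. In liver it was 0.422 for fatty acid synthesis and 0.455 for cholesterol synthesis, against 0.203 for the secretory pathway. These liver values include CL 1, which stood apart from the other livers, and its part in them was not tested. PCK1 (6.17 to 813 FPKM), SCD (3.94 to 184) and CYP7A1 (3.29 to 83.3) had wide ranges, and among the genes given per library with a mean of at least 1 FPKM in CL, PCK1 had the highest coefficient of variation (1.65). In muscle, MB (myoglobin), the oxygen store of red fibres, had 0, 0, 0, 0.118 and 0.0654 FPKM in CL 1 to 5, against 2476, 172, 1555, 1787 and 280.2 FPKM in CM 1 to 5 (log2 fold change -9.60 ± 0.64, adjusted p = 2.5e-08). CM 2 and CM 5 held the least myoglobin, and they also had the lowest sums of citric acid cycle genes (3074 and 2918 FPKM, against 4124 to 5033), of oxidative phosphorylation (23826 and 22216, against 29801 to 33930.3) and of glycolysis (17327 and 22307, against 30933 to 37209). MGP, an inhibitor of calcification made by vessel and connective tissue cells, ranged over 236 to 978 FPKM in CM with no such order.

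**Figure D5:**
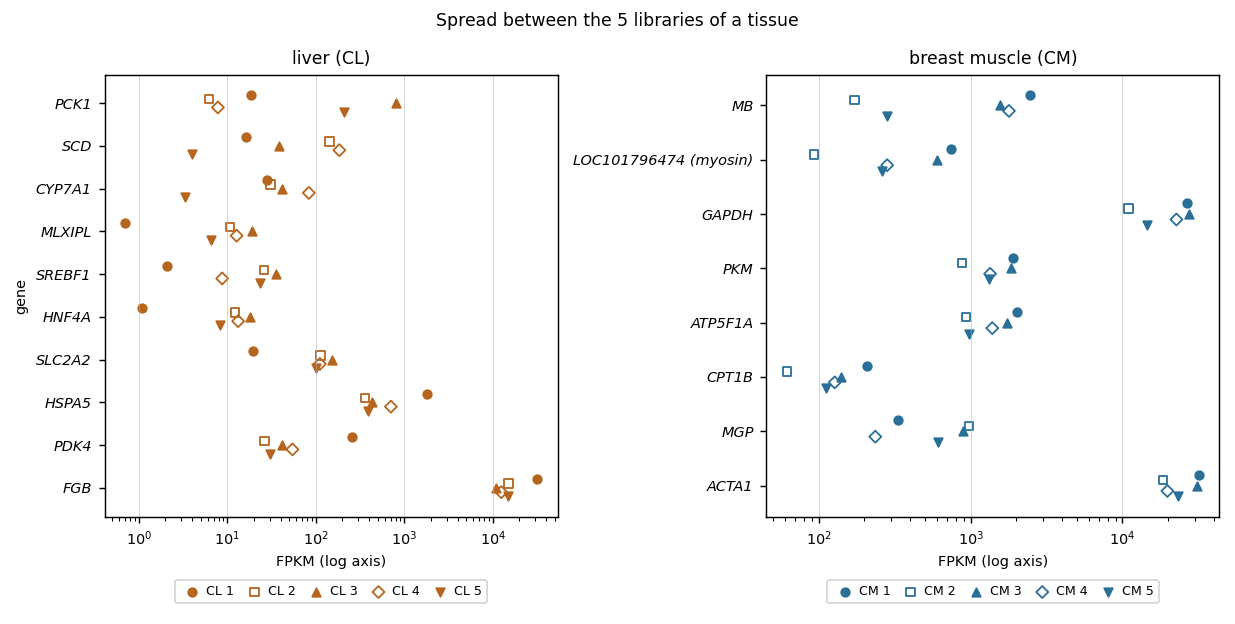
FPKM (log axis) of genes that vary between the 5 livers (left) and the 5 breast muscles (right), 1 symbol per library. PCK1, SCD and CYP7A1 have wide ranges in liver (6.17 to 813, 3.94 to 184 and 3.29 to 83.3 FPKM), and CM 2 and CM 5 lie lowest for MB and GAPDH in muscle.

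The tissue difference was measured again in the linseed oil ducks, which share no library with CL and CM. HL vs. HM gave 4203 DEGs among 10449 genes (40.2%). Of the 4456 genes called in CL vs. CM, 3743 were called in the same direction and 0 in the opposite one. Of the 13 opposed isoform pairs, 12 were opposed there too. The test of the difference between both tissue contrasts (limma interaction, 11256 genes) called 1 gene, while 913 genes had an unadjusted p below 0.05. That gene was MRC1, with a log2 fold change of 2.82 in CL vs. CM and 4.72 in HL vs. HM (adjusted p = 0.00924), and it was not called with the replicate number as a block. One library of the linseed oil muscles, HM 2, had a summed FPKM of 597368 against 335064 to 361863 in the other 4. Without it HL vs. HM called 40.3% of the genes, and 4 genes were called in the interaction, MRC1 and DKK2 among them. This alternative was chosen after seeing the data.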

How the data were processed

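RNA-seq was measured in liver and breast muscle of 10 male ducks, 20 libraries in all. By the study's methods and the submitters' processing notes, mRNA was purified with poly-T beads, reads were aligned with HISAT2 version 2.0.5 and only reads with a single position in the genome were quantified. The paper links the duck assembly ZJU1.0 as its reference. The authors deposited FPKM per gene for 25117 genes, and the values gave back whole fragments for 100% of genes above 0 in every library, with a size factor as the scaling. Gene names follow the table, and 20868 IDs matched RefSeq, which gave 622 names by ID and 11 by description.

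CL and CM were compared on log2(FPKM + 1) with limma 3.58.1 in R 4.3.3 (trended eBayes), for genes whose FPKM reached 1 in 5 or more of the 10 libraries, with Benjamini-Hochberg adjustment over all of them. A gene was called at an adjusted p under 0.05 with a log2 fold change beyond 1 in either direction. The script was tested on simulated data. Single measures were compared with an exact permutation test. Equal numbers were not treated as pairs, since the labels do not tie them to a duck, so p-values measure the spread between these libraries. Counting limits cover counting error only. The members and lists were chosen with earlier results of these data known. Named genes were those of the isoform pairs and factor lists, up to 3 at each end of each programme list and those against its direction, the 10 most abundant per tissue and up to 10 leading genes each way outside the lists, and others are marked as chosen after their values were seen. List genes whose symbol did not match an entry were not analysed here. The values of some genes are not reported here, though the genes are included in the counts. Alternatives were other pseudocounts, filters, scalings, fold thresholds, fits with all libraries, a robust or blocked fit, voom on the recovered fragments, and each library left out in turn.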

Additional observations from a re-analysis of the deposited data

Results flagged for a closer look

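Among 280 groups of 5 libraries (the genes given per library, the list sums and the pair shares), 27 had a library whose gap to its nearest neighbour took up more than 0.71 of the range. For independent and normally distributed values, chance alone would put about 1 in 20 groups there. Some groups here rest on very few fragments, some share genes, and some genes were chosen after their values were seen. The 27 groups can therefore not be set against that rate, and they are listed as a description only.

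CL 1 was that library 11 times. Its summed FPKM was 138, against 28.2 to 53.1 in the other 4 livers, for macrophage markers, 3.66, against 9.31 to 10.6 in the other 4, for Schwann cell markers, and 7498, against 4357 to 4988 in the other 4, for the secretory pathway. FGB had 31549, against 10784 to 15118 in the other 4 (FPKM), HSPA5 1812, against 359.7 to 706 in the other 4, XBP1 609, against 333 to 394 in the other 4 and PDK4 254, against 26.4 to 54.4 in the other 4. ATP2A2, a calcium pump of the endoplasmic reticulum, had 13.2, against 5.34 to 6.64 in the other 4 and CKMT2 0.184, against 0 to 0.0415 in the other 4. The share of AMPD2 in its pair was 68.8%, against 91.5 to 97.6% in the other 4, and that of MLXIPL in its pair with MLXIP 3.61%, against 60.6 to 83.4% in the other 4. What sets CL 1 apart was not tested.

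In the other livers, CL 3 stood out for PCK1, with 813, against 6.17 to 205 in the other 4 (FPKM), and for MRC1, with 21, against 9.57 to 12.4 in the other 4. CL 4 stood out for TNNC1, with 0.362, against 0 in the other 4, and for RPL3L, with 0.0538, against 0 in the other 4, where the share of RPL3 was 99.99%, against 100% in the other 4. Its PRKAG1 share was 98.8%, against 99.74 to 100% in the other 4.

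In muscle, CM 1 stood out for PDK4, with 1530.5, against 884 to 999 in the other 4 (FPKM), and CM 2 for the sum of macrophage markers, 47.4, against 36.9 to 39.1 in the other 4. CM 3 stood out for TNNI2, with 4318, against 2797 to 3115 in the other 4, for RPL3L, with 132, against 81.9 to 92.8 in the other 4, and for the share of FABP1, 1.95%, against 0 to 0.194% in the other 4. In CM 4 FBP1 had 3.7, against 1.51 to 1.95 in the other 4. CM 5 stood out for LOC101794508, the uncoupling protein 3 entry, with 109, against 38.8 to 51.1 in the other 4, for the sum of bile duct markers, 8.76, against 3.21 to 4.02 in the other 4, and for low traces of NR1H4, 0.0935, against 0 to 0.0259 in the other 4, and SLC2A2, 0.358, against 0 to 0.0494 in the other 4.

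The tissue difference of MRC1 itself differed between the diets by -1.90 on the log2 scale (2.82 for CL minus CM less 4.72 for HL minus HM; limma interaction, adjusted p = 0.00924). This was the one call among 11256 genes, where 913 had an unadjusted p below 0.05. It was also called without HM 2 (adjusted p = 0.0235) and was not called with the replicate block.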

How the results depend on the processing

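CL vs. CM gave 4456 DEGs, and between 4388 and 4492 with each library left out in turn. Pseudocounts of 0.1 and 0.5, no filter, a median-of-ratios or quantile scaling, a fit of all 20 libraries and a robust fit gave 4384 to 5032, and voom on the recovered fragments gave 5087. With the replicate number as a block the count was 4463, 2147 of them higher. The deviations of CL and CM libraries of the same number correlated between 0.0078 and 0.25, and those of different numbers between -0.156 and 0.156. The numbers were not taken as pairs because the labels do not tie them to a duck. HBAA and HBBA were the named genes whose call the block changed, both to lower in CL. An FPKM minimum of 5 left 1431 genes lower in CL, with fewer genes tested. With TPM scaling 1256 genes were higher and 4875 lower, and 7 isoform pairs were opposed. Without a fold threshold 7025 genes were called, 3521 higher and 3504 lower. With a log2 threshold of 2 they were 2230, 1091 higher and 1139 lower, with 7 opposed pairs. The number of opposed pairs was 13 to 14 with each library left out. The interaction of tissue and diet called 0 genes with the block (962 at an unadjusted p below 0.05, limma) and 4 without HM 2, an alternative chosen after seeing the data. Of 226 named genes tested, 195 were called, 192 of these in every fit with a library left out (the others were ACTB, TEAD1 and SCN4A) and 184 with TPM scaling. The log2 fold changes that turned sign with TPM scaling were -0.17 for ENO1, -0.26 for LDHA, -0.19 for AMPD2, -0.13 for ATP2A2, -0.91 for ATP1B1, -1.02 for ACTN4, -0.99 for CEBPD, -0.74 for NR2F2, -0.67 for PPARG, -0.68 for NR1H3, -0.24 for SREBF1, -0.65 for PPARGC1A, -0.20 for ESRRG, -0.88 for NR1D2, -0.58 for NFE2L2, -0.40 for FTH1, -0.67 for the median of adipocyte markers, -0.78 for the median of metabolic transcription regulators and -0.74 for the median of mitochondrial beta-oxidation. With quantile scaling they were -0.33 for ENO1, -0.62 for LDHA, -0.70 for ATP1B1, -0.47 for ACTN4, -0.79 for CEBPD, -0.0333 for NR2F2, -0.0978 for NR1H3, 0.22 for NR1D1, -0.0596 for NR1D2, -0.0342 for NFE2L2, 0.13 for NRF1, -0.78 for FTH1 and -0.44 for the median of mitochondrial beta-oxidation. With median-of-ratios scaling they were -0.0422 for ACTN4 and -0.0059 for CEBPD. Without a filter it was 1.26 for the median of bile duct markers. With a library left out, the values that crossed 0 ranged over -0.12 to 0.29 for ACTN4, -0.0804 to 0.41 for CEBPD, -0.0182 to 0.28 for PPARG, -0.30 to 0.0371 for NR1D1, -0.11 to 0.27 for NR1D2, -0.49 to 0.0914 for the median of macrophage and Kupffer cell markers and -0.0182 to 0.36 for the median of adipocyte markers. The gene values that turned sign had not been called on the deposited scale. The cause of these changes was not tested.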

Other observations

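Of 146 long non-coding RNA genes that were tested, 35 were higher and 29 lower in CL (24% and 19.9%), close to the 20.4% and 21.9% of all tested genes. The filter itself selects for tissue genes. Among the 1617 genes that reached an FPKM of 1 in exactly 5 of the 10 libraries, 520 did so in the 5 CL libraries and 977 in the 5 CM libraries. Such genes had to differ, and 98 of the genes lower in CL had 0 fragments in every liver, while 17 of the genes higher in CL had 0 in every muscle. A further 338 genes reached an FPKM of 1 in exactly 4 libraries and were not tested.

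Markers of other cells gave further values. JCHAIN, of antibody-secreting cells, averaged 43.3 ± 28.8 FPKM in CL against 2.84 ± 1.45 FPKM in CM. ADIPOQ (adiponectin), made by adipocytes, averaged 2.74 ± 2.03 FPKM in CL against 109 ± 29 FPKM in CM, whereas CIDEC, of lipid droplets, averaged 12.3 ± 6.06 FPKM in CL against 0.217 ± 0.252 FPKM in CM. The median over the 5 adipocyte markers was 0.18 and turned negative with TPM scaling.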
